A study of Mus musculus with 11 samples.

Results

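The nuclear genes for subunits of respiratory complexes II to V are described here in mouse colorectal organoids, cultures of colon epithelium set in Matrigel. Members were the protein-coding genes of the count table named Sdha to Sdhd, Uqcr followed by any suffix, Cyc1, Cox4 to Cox8 or Atp5. They were 48 of 47131 genes, of which 4 belong to complex II, 9 to complex III, 18 to complex IV and 17 to complex V. Sequenced poly(A) RNA came from 6 NAP libraries (10 pM for 48 h) and 5 control libraries. The labels do not say what NAP is, and they call the controls untreated in 1 field and PBS-treated, as a vehicle control, in another. All organoids came from female C57BL/6J mice aged 6 to 8 weeks and all libraries carry batch label 1. The libraries are called biological replicates, but whether each had its own animal or culture is not said, so the spread behind each p-value may be partly technical.

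Respiratory complexes sit in the inner mitochondrial membrane. Complex II (succinate dehydrogenase) passes electrons from succinate to ubiquinone and is made wholly of nuclear-encoded subunits. Complex III passes them on to cytochrome c and complex IV (cytochrome c oxidase) to oxygen, both pumping protons, and complex V (ATP synthase) uses the proton gradient to make ATP. Complexes III, IV and V also hold core subunits encoded by mitochondrial DNA. In the colon, absorptive colonocytes oxidise butyrate in their mitochondria.

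The libraries held 16546263 to 21947414 gene counts. Epithelial markers summed to 11240 to 14747 CPM (counts scaled to library size with TMM) after NAP and to 9987 to 19097 CPM in controls. Immune markers summed to 8.08 to 18.2 CPM after NAP and 5.76 to 13.5 CPM in controls, and endothelial, smooth muscle, brown fat and sperm markers to at most 2.51 CPM in any library. Of the 7 fibroblast and stroma markers, which summed to 7.65 to 52.7 CPM after NAP and 2.199 to 31.9 CPM in controls, Pdgfrb averaged 18.1 ± 10.1 CPM after NAP and 14.6 ± 12.5 CPM in controls, and Dcn reached 7.04 and Col3a1 5.03 CPM in NAP library 5. Of 6 striated muscle markers, 5 stayed below 1 CPM in every library, while Acta1, skeletal muscle actin, averaged 315 ± 173 CPM after NAP and 84.9 ± 58.0 CPM in controls (SD, n = 6 and 5 here and below; log2 fold change 1.89, adjusted p = 0.0794). Stem cell markers summed to 128 to 267 CPM after NAP and 86.4 to 691 CPM in controls. The mitochondrial chromosome took 5.17 to 8.08% of counts after NAP and 2.74 to 4.78% in controls.

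Promoters are shown because respiratory genes are known targets of NRF1 and GABPA. RefSeq windows from 250 bases before to 50 bases after the start (build GRCm38.p6) were found for 36 of the 48 members, in 39 windows. In the 250 bases upstream of the 3 members below, printed 5′ to 3′ on the strand of the gene, capitals mark matches to searched motifs. Sdha, chr13:74350241-74350490, minus strand, holds 3 matches to the NRF1 motif and 1 to the NFY motif. Uqcr10, chr11:4704345-4704594, minus strand, holds 2 matches to the ZNF143 motif and 1 to the NFY motif, and Atp5d, chr10:80142025-80142274, plus strand, holds 1 match to the ZNF143 motif.
Sdha: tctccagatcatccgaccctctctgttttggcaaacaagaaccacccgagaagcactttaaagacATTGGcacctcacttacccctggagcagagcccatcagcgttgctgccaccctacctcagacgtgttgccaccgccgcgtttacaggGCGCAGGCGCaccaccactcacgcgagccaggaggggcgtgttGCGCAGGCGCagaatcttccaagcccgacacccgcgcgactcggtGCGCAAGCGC
Uqcr10: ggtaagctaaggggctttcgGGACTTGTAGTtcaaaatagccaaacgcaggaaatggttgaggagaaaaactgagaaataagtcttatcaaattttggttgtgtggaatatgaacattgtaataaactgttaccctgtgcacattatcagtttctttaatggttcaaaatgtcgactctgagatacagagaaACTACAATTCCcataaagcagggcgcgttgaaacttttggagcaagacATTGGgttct
Atp5d: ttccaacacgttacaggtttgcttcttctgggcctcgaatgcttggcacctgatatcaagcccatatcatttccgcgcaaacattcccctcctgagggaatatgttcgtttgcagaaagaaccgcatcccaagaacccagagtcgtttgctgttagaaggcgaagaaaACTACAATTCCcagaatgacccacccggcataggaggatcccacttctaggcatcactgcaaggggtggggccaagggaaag

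The NRF1 motif, searched on both strands as were the others, was present in 10 of 39 member windows, or 25.6%, against 4.60% of 32851 windows over all genes. The ETS family motif bound by GABPA (CCGGAAG) was present in 13, or 33.3%, against 8.86% of all windows, and the YY1 motif (AAGATGGC) in 3, or 7.69%, against 2.75%. The SP1 motif (GGGCGG) was in 35.9% of member windows and 35.7% of all windows, and the NFY motif (CCAAT) in 53.8% and 37.4%. The ZNF143 motif was in 6 windows, or 15.4%, against 1.98% of all windows. It was added after the member promoters had been read, so its share among them is not an independent count. Those 6 windows belong to Atp5d (both of its starts, in overlapping windows that hold the same match), Atp5o, Cox7b, Cox7c and Uqcr10. Uqcrc1 holds 2 NRF1 matches, both in the 50 bases after the start. The windows over all genes were not limited to expressed genes or matched for GC content. A match is only a stretch of letters, and binding was not measured. The part of these motifs in the member levels was not tested.

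No member changed past the threshold after NAP. By edgeR's quasi-likelihood test with Benjamini-Hochberg adjustment over all 14840 genes tested, 0 of 42 tested members passed an adjusted p of 0.05, where 2.12% of all genes tested did (315 genes, 1.07% lower and 1.05% higher). That total was 0 without any single one of controls 1, 2 and 5 or NAP libraries 2, 4 and 5, while 0 members were called with any 1 library left out. The lowest adjusted p among members was 0.107, for Uqcrc1. At an unadjusted p under 0.05 stood 7 members, or 16.7%, all lower after NAP, against 23.6% of all genes (12.7% lower). These were Uqcrc1, Uqcr10, Uqcr11 and Cyc1 of complex III and Atp5d, Atp5g1 and Atp5e of complex V. In CPM, 0 members had NAP and control libraries that did not overlap, where 4.7% of all genes did (2.57% with NAP below and 2.13% with NAP above). Limma on voom-transformed counts also called 0 members (2.04% of all genes), and DESeq2 called 1, Uqcrc1 (adjusted p = 0.0437), where it called 13% of the genes it tested. In bulk RNA, fewer cells of a type and less RNA per cell cannot be told apart.

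The log2 fold change was negative for 38 of the 42, or 90.5%, against 55.3% of all genes, with a median of -0.37 against -0.07. Complex III had the lowest median, -0.78, with 8 of 9 members negative. Complex IV followed at -0.42 with 12 of 12 negative, complex V at -0.24 with 15 of 17, and complex II at -0.14 with 3 of 4. The difference between complexes was not tested, since members share libraries and are not replicates. The sign of these medians depended on controls 2 and 5 and on trends with gene length and transcript GC content. Without controls 2 and 5, 7 of 42 members were negative. The medians were then 0.27 for complex III, 0.39 for complex IV, 0.35 for complex V and 0.48 for complex II. Without controls 1 and 4, 41 were negative, with a median over all members of -0.77. Controls 2 and 5 had the highest member levels and controls 1 and 4 the lowest, so each shift follows from which were left out. The median over all members was -0.10 without control 2 and -0.12 without control 5 (28 negative in each). It was -0.17 with limma on voom (31 negative) and -0.01 with the gene length trend removed in each library (21 negative). With that trend removed the complex medians were 0.16 (II), -0.39 (III), -0.08 (IV) and 0.02 (V). With GC and gene length trends both removed all 4 were positive, at 0.19 (II), 0.0033 (III), 0.067 (IV) and 0.071 (V).

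**Figure D1:**
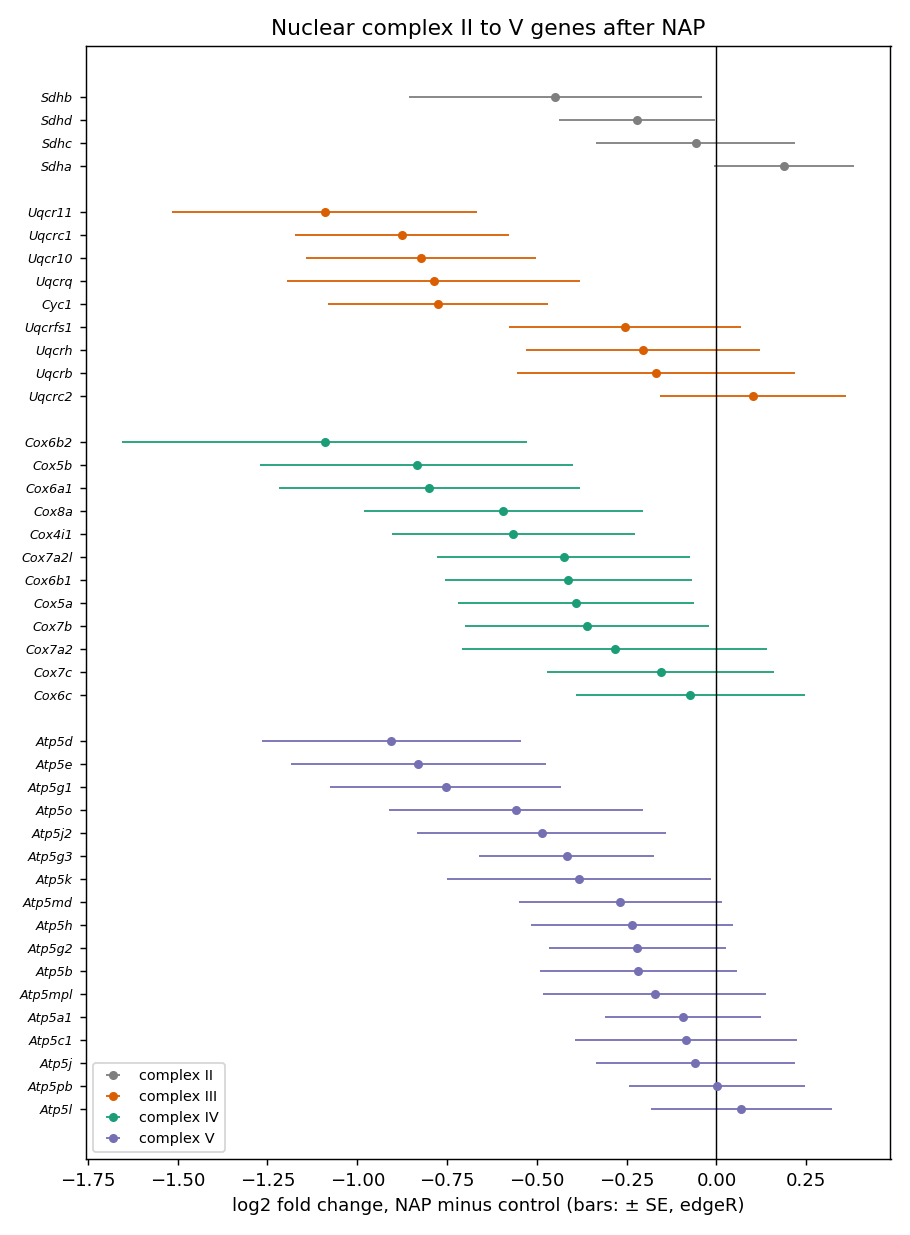
Log2 fold change, NAP minus control, of each tested member (points) with its standard error (bars), grouped by complex, from edgeR over 6 NAP and 5 control libraries; the vertical line marks no change. Most points lie left of it, complex III spans -1.09 to 0.10, and no member passed the threshold.

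Other mitochondrial and translation genes also had negative medians, with unequal shares of low p-values. These groups were picked only by how gene names begin. The complex I group thus takes in Ndufa4 and can take in assembly factors. The cytosolic ribosomal protein group can take in genes for other proteins whose names begin alike. The 50 tested nuclear complex I genes had a median of -0.36 with 46 negative, 0 called and 16% at an unadjusted p under 0.05, against 16.7% of members and 23.6% of all genes. The 78 mitochondrial ribosomal protein genes had a median of -0.43 with 72 negative, 4 called lower (1.07% of all genes were) and 46.2% at an unadjusted p under 0.05. The 105 tested cytosolic ribosomal protein genes had a median of -0.50 with 96 negative, 4 called lower and 49.5% at an unadjusted p under 0.05. NAP libraries lay below every control for 9 mitochondrial and 8 cytosolic ribosomal protein genes and for 0 members, where they did for 2.57% of all genes. These differences between gene groups were not tested.

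The spread of member levels lay almost wholly among the controls. A score, in which each member's log2 CPM is taken relative to its average over the 11 libraries and then averaged over the 42 members, was -0.05, -0.29, 0.02, 0.03, -0.21 and -0.16 in NAP libraries 1 to 6, against -0.50, 0.97, 0.07, -0.80 and 0.92 in controls 1 to 5. Controls 2 and 5 stood above and controls 1 and 4 below every NAP library, and control 3 lay just above the highest of them. The SD of the score was 0.13 after NAP and 0.80 in controls, and its means differed by -0.24, less than the control SD. Controls 2 and 5 were the 2 highest of the 11 libraries for 40 of 42 members, or 95.2%, against 19.1% of all genes. In 28 members, or 66.7%, controls 1 and 4 were the 2 lowest, against 14.7% of all genes. The SD of log2 CPM was smaller after NAP than in controls for 41 of 42 members, or 97.6%, against 63.3% of all genes. Its median over members was 0.19 after NAP and 0.86 in controls, where the medians over all genes were 0.38 and 0.50. The pattern was not particular to the members. The same score over nuclear complex I genes was -0.45, 0.88, 0.14, -0.66 and 0.82 in controls 1 to 5. Its SD was 0.71 in controls and 0.17 after NAP. Mitochondrial ribosomal protein genes were also highest in controls 2 and 5, with an SD of 0.38 in controls and 0.16 after NAP. Of the pairs within a group, controls 2 and 5 were the most alike, but their counts differed by more than sampling noise (chi-square per degree of freedom 7.68), and both were kept.

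In each of the 4 complexes controls 2 and 5 scored above and controls 1 and 4 below every NAP library, while control 3 lay among the NAP libraries in complexes II and V and above them in complexes III and IV. Scores for complex III ran from -0.31 to 0.02 after NAP and from -0.78 to 1.12 in controls. Scores for complex IV ran from -0.41 to 0.01 after NAP and from -0.89 to 1.06 in controls, and those for complex V from -0.26 to 0.07 after NAP and from -0.74 to 0.89 in controls. For complex II the range was -0.18 to 0.22 after NAP and -0.84 to 0.71 in controls. Differentiation markers moved with the scores among controls but not among NAP libraries. The score of 8 absorptive colonocyte markers minus that of the 7 tested stem cell markers was -0.55, 1.37, -0.69, 1.05, 1.24 and 0.33 in NAP libraries 1 to 6, against -2.80, 2.61, -1.20, -3.85 and 2.48 in controls 1 to 5. Among controls, those high in member transcripts were also those high in colonocyte over stem cell markers, and the controls low in one were low in the other. Among NAP libraries, 2 and 5 had the lowest member scores and the highest marker scores, and 1 and 3 the lowest marker scores. Fibroblast and stroma markers summed to 7.65, 23.8, 7.86, 27.2, 52.7 and 14.9 CPM in NAP libraries 1 to 6, against 3.83, 31.9, 12.5, 2.199 and 30.3 CPM in controls 1 to 5, most of it from Pdgfrb. They too were high in controls 2 and 5 and low in controls 1 and 4. The part of either list in the member levels was not tested.

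**Figure D2:**
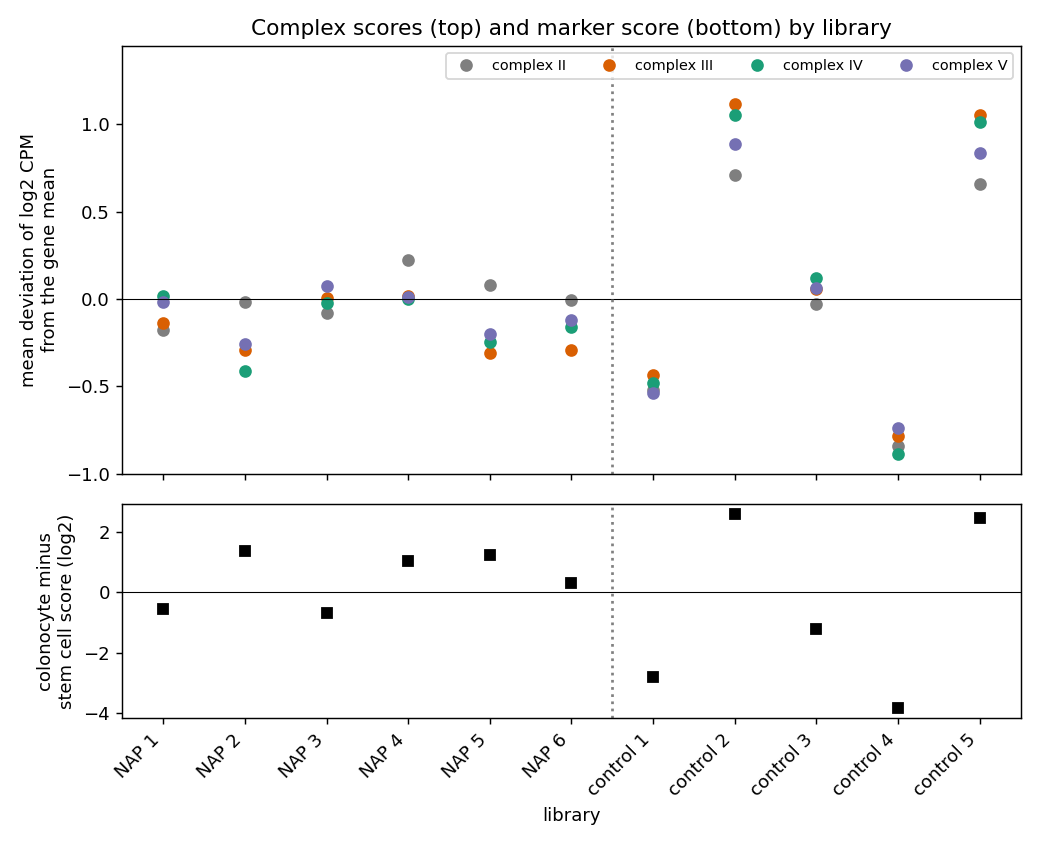
Score of each complex (log2 CPM relative to each gene's average, averaged over members) in each library, the 6 NAP libraries left and the 5 controls right, with the colonocyte minus stem cell marker score in the lower panel. NAP libraries lie close together between controls 2 and 5 at the top and controls 1 and 4 at the bottom, in all 4 complexes.

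Summed per length, the 48 members gave 13553, 12682, 14153, 15353, 13476 and 12830 FPKM (the authors' deposited values, scaled by gene length and a library constant) in NAP libraries 1 to 6, against 9856, 29911, 14493, 8024 and 28564 FPKM in controls 1 to 5. The mean was 13674 ± 980 FPKM after NAP and 18170 ± 10386 FPKM in controls. Complex V summed to 5547 ± 392 FPKM after NAP and 6936 ± 3442 FPKM in controls, and complex IV to 5063 ± 459 and 7180 ± 4702 FPKM. Complex III summed to 2252 ± 193 FPKM after NAP and 3145 ± 1806 FPKM in controls, and complex II to 812 ± 78.2 and 909 ± 437 FPKM. Each mean after NAP lay within 1 SD of its control mean.

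Complex III held the members with the lowest p-values. Its core proteins line the matrix side, and their transcripts differed from each other. Uqcrc1 (identifier 22273, chromosome 9, 108765716 to 108778709, plus strand; these and all gene coordinates are GRCm39) had 323, 307, 419.7, 370.4, 287 and 357 CPM in NAP libraries, against 403, 1029, 463, 312 and 949.8 CPM in controls. The groups overlapped, with controls 2 and 5 far above all other libraries (log2 fold change -0.88, SE 0.30, adjusted p = 0.107). Uqcrc2 (identifier 67003, chromosome 7, 120234412 to 120258746, plus strand) had 275, 398, 274, 397, 441 and 359 CPM in NAP libraries, against 229, 472, 293, 193 and 478 CPM in controls. NAP libraries lay between controls 1 and 4 and controls 2 and 5, and it was the single complex III member with a positive fold change (log2 fold change 0.10, SE 0.26, adjusted p = 0.837).

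The redox subunits carry electrons through complex III. Cyc1, cytochrome c1, had 283, 265, 354, 339, 275 and 312 CPM in NAP libraries, against 332, 856, 366, 246 and 809 CPM in controls. Its 6 NAP libraries all lay below the control mean but not below control 4 (log2 fold change -0.78, SE 0.31, adjusted p = 0.150). Uqcrfs1, the Rieske iron-sulfur protein, averaged 449 ± 77.2 CPM after NAP and 536 ± 288 CPM in controls (log2 fold change -0.25, adjusted p = 0.663). Uqcr10, a small membrane subunit, had 159, 125, 174, 159.9, 136 and 142 CPM in NAP libraries, against 145, 459, 182, 127 and 409.7 CPM in controls. Its NAP libraries lay below controls 2, 3 and 5 and overlapped controls 1 and 4 (log2 fold change -0.82, SE 0.32, adjusted p = 0.144).

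Uqcr11, another small subunit, had the most negative fold change of complex III. It had 109, 40.0, 92.6, 58.2, 29.7 and 30.4 CPM in NAP libraries, against 74.0, 213, 100.5, 57.3 and 195 CPM in controls. NAP libraries 2, 5 and 6 lay below every control and the other 3 did not (log2 fold change -1.09, SE 0.43, adjusted p = 0.145). Uqcrq and Uqcrb are both known as ubiquinone-binding proteins. Uqcrq averaged 177 ± 49.4 CPM after NAP and 305 ± 219 CPM in controls (log2 fold change -0.79, adjusted p = 0.263), and Uqcrb averaged 176 ± 24.2 CPM after NAP and 198 ± 133 CPM in controls (log2 fold change -0.17, adjusted p = 0.820). Uqcrh, the hinge protein beside cytochrome c1, had the highest level per length in complex III, at 539 ± 81.0 FPKM after NAP and 619.6 ± 354 FPKM in controls (log2 fold change -0.20, adjusted p = 0.736). It shares 1721 bases with Gm12854 on the opposite strand, and whether counting used strand is not stated.

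**Figure D3:**
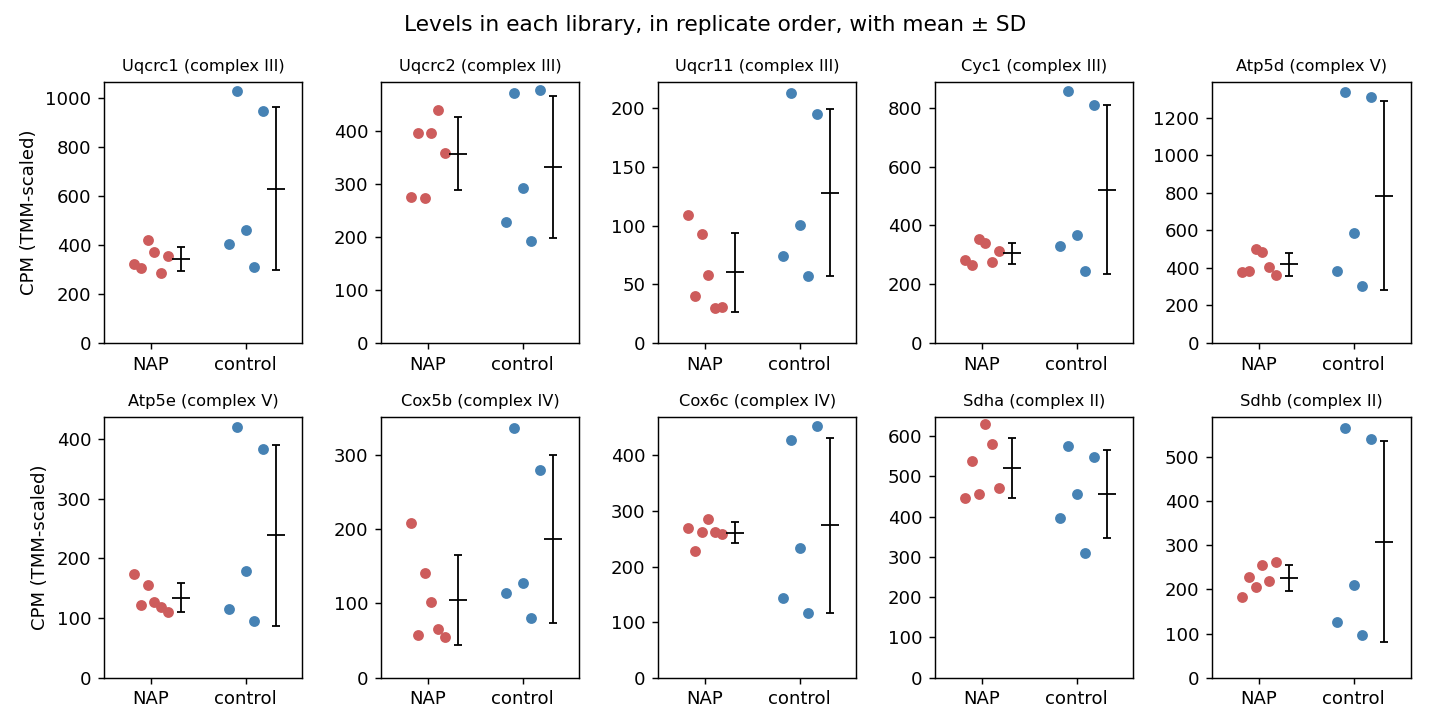
CPM (TMM-scaled) of 10 members in the 6 NAP libraries (red, left) and the 5 controls (blue, right), points in replicate order, with mean ± SD beside them; axes start at 0. Controls 2 and 5 stand highest in every panel but that of Sdha, where 2 NAP libraries lie above them, and NAP points sit close together except in Uqcr11 and Cox5b.

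The 12 tested complex IV members were all lower on average after NAP, and none reached an unadjusted p under 0.05. Cox6a1, the general isoform of subunit 6a, had 564, 601, 549, 688, 612 and 500.0 CPM in NAP libraries, against 453, 1917, 655, 294 and 1776 CPM in controls. Control libraries spanned a wider range than the NAP libraries in both directions (log2 fold change -0.80, SE 0.42, adjusted p = 0.270). Per length it had the highest level of complex IV, at 1056 ± 120.0 FPKM after NAP and 1835 ± 1394 FPKM in controls. Cox4i1, the main isoform of the largest nuclear subunit, averaged 574 ± 79.8 CPM after NAP and 849 ± 509 CPM in controls (log2 fold change -0.57, adjusted p = 0.332), and Cox8a, the general isoform of subunit 8, averaged 387 ± 76.3 CPM after NAP and 584 ± 396 CPM in controls (log2 fold change -0.59, adjusted p = 0.377).

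Cox5b, which binds zinc on the matrix side, had 209, 57.2, 141, 102, 65.7 and 55.1 CPM in NAP libraries, against 113, 336, 128, 80.0 and 279 CPM in controls. NAP libraries 2, 5 and 6 were again below every control and NAP library 1 was above controls 1, 3 and 4 (log2 fold change -0.83, SE 0.44, adjusted p = 0.268). Its pseudogene Cox5b-ps held 9.98 to 12.9% of the CPM of Cox5b across the 11 libraries, so reads may be shared between the copies. Cox6c, whose fold change was the nearest to 0 in complex IV, had 269, 228, 262, 286, 262 and 258 CPM in NAP libraries, against 144, 428, 232, 116 and 452 CPM in controls. All 6 NAP libraries lay between control 1 and control 2 (log2 fold change -0.07, SE 0.32, adjusted p = 0.911). Cox7a2l, a paralog known to help join complexes III and IV into supercomplexes, averaged 340.5 ± 72.9 CPM after NAP and 457 ± 271 CPM in controls (log2 fold change -0.43, adjusted p = 0.487). Cox6b1 averaged 262 ± 35.1 CPM after NAP and 349 ± 216 CPM in controls, Cox7b 213 ± 25.1 CPM after NAP and 273 ± 161 CPM in controls and Cox7a2 177 ± 15.5 CPM after NAP and 216 ± 165 CPM in controls, with log2 fold changes of -0.41, -0.36 and -0.28. Cox5a and Cox7c had log2 fold changes of -0.39 and -0.16.

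Tissue isoforms of complex IV were nearly silent. Cox4i2 (lung), Cox6a2, Cox7a1 and Cox8b (striated muscle) and Cox7b2 and Cox8c (testis) had 0 to 21 counts per library and were not tested. Cox6a2 averaged 0.208 ± 0.208 CPM after NAP and 0.420 ± 0.620 CPM in controls, and Cox7a1 0.250 ± 0.194 CPM after NAP and 0.346 ± 0.136 CPM in controls. Cox8c was at 0 in all 6 NAP libraries and in 4 of 5 controls. There 0 counts allow up to 0.137 to 0.181 CPM depending on the library, for counting error only. That range is per raw count total and is not TMM-scaled. Cox6b2, the testis isoform of subunit 6b, was tested at a low level, with 1.01, 0.120, 1.46, 0.486, 0.314 and 1.84 CPM in NAP libraries, against 2.95, 1.19, 2.42, 1.51 and 1.29 CPM in controls (log2 fold change -1.09, SE 0.56, adjusted p = 0.262).

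Complex II, built of a head that oxidises succinate and a membrane anchor, had the highest median of the 4 complexes. Sdha, the flavoprotein that binds succinate (identifier 66945, chromosome 13, 74470374 to 74498359, minus strand), had 445, 539, 457, 631, 581 and 470.5 CPM in NAP libraries, against 395, 575, 456, 310.0 and 549 CPM in controls. NAP libraries overlapped controls 2, 3 and 5 and lay above controls 1 and 4, and its fold change was the most positive of all members (log2 fold change 0.19, SE 0.19, adjusted p = 0.585). Sdhb, the iron-sulfur subunit of the same head (identifier 67680, chromosome 4, 140688582 to 140706509, plus strand), had 182, 227, 206, 257, 220.1 and 263 CPM in NAP libraries, against 127, 567, 211, 97.7 and 541 CPM in controls. Controls 2 and 5 stood far above every NAP library, and controls 1 and 4 lay below them all (log2 fold change -0.45, SE 0.41, adjusted p = 0.526). The anchor subunits were Sdhd, highest of complex II per length at 233 ± 18.5 FPKM after NAP and 271 ± 97.3 FPKM in controls (log2 fold change -0.22, adjusted p = 0.558), and Sdhc, at 199 ± 24.1 FPKM after NAP and 207 ± 98.4 FPKM in controls (log2 fold change -0.06, adjusted p = 0.918).

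In complex V the catalytic head showed unequal differences. Atp5d, the delta subunit of the central stalk (identifier 66043, chromosome 10, 79974451 to 79981662, plus strand), had 377, 383, 502, 485, 403 and 362 CPM in NAP libraries, against 384, 1336, 588, 301 and 1311 CPM in controls. NAP libraries lay below controls 2, 3 and 5, around control 1 and above control 4 (log2 fold change -0.91, SE 0.36, adjusted p = 0.154). It shares 1739 bases with Cbarp on the opposite strand, which held 113 counts on average against 10036 of Atp5d. Atp5e, the epsilon subunit beside it, had 174, 121, 155, 126, 118 and 110.4 CPM in NAP libraries, against 116, 421, 179, 95.2 and 383 CPM in controls, and again all 6 NAP libraries were below the control mean (log2 fold change -0.83, SE 0.36, adjusted p = 0.182). The beta subunit Atp5b, which carries the catalytic sites and was highest of complex V per length, stood at 1114 ± 151 FPKM after NAP and 1290.2 ± 569 FPKM in controls (log2 fold change -0.22, adjusted p = 0.661). The alpha subunit Atp5a1 averaged 1824 ± 167 CPM after NAP and 1946 ± 568 CPM in controls (log2 fold change -0.09, adjusted p = 0.821) and the gamma subunit Atp5c1 487 ± 77.5 CPM after NAP and 517 ± 273 CPM in controls (log2 fold change -0.08, adjusted p = 0.891).

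The c ring, which turns as protons pass, is built of 1 mature protein from 3 genes. Atp5g1 had 154, 107, 188, 156, 104 and 132 CPM in NAP libraries, against 136, 412, 178, 114 and 342 CPM in controls. The NAP libraries overlapped controls 1, 3 and 4 (log2 fold change -0.75, SE 0.32, adjusted p = 0.180). Atp5g3 averaged 397 ± 94.9 CPM after NAP and 531 ± 175 CPM in controls (log2 fold change -0.42, adjusted p = 0.319) and Atp5g2 139 ± 14.4 CPM after NAP and 162 ± 67.4 CPM in controls (log2 fold change -0.22, adjusted p = 0.618). Of the peripheral stalk, which holds the head still, Atp5o (OSCP) averaged 325 ± 39.2 CPM after NAP and 478 ± 307 CPM in controls (log2 fold change -0.56, adjusted p = 0.360), while Atp5h, Atp5j and Atp5pb had log2 fold changes of -0.24, -0.06 and 0.00. Atp5j shares 3159 bases with Gabpa on the opposite strand, so both are uncertain. Of the remaining membrane subunits, Atp5j2, Atp5k, Atp5md and Atp5mpl had log2 fold changes of -0.49, -0.38, -0.27 and -0.17, and Atp5l, subunit g, averaged 155 ± 23.1 CPM after NAP and 148 ± 61.8 CPM in controls (log2 fold change 0.07, adjusted p = 0.891).

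Set against the other members of the same library, a few genes stood apart. The scale was log2 CPM minus the mean over the 42 members. On it, NAP and control libraries did not overlap for 4 members, or 9.52%. Of all genes placed on it, 2.54% did not overlap (0.526% with NAP below and 2.01% with NAP above). The member mean had an SD of 0.80 in controls and 0.13 after NAP. Subtracting it takes shared spread out of the members and can add it to other genes, so these shares cannot be compared. In CPM, 0 members and 4.7% of all genes did not overlap. Uqcrc1 lay at 0.46 to 0.78 after NAP and at 0.87 to 1.24 in controls. Atp5d lay at 0.69 to 1.04 after NAP and at 1.12 to 1.53 in controls. Uqcr10 lay at -0.66 to -0.48 after NAP and at -0.48 to -0.04 in controls, so that its groups nearly met. Cox6c was the single member above the controls, at 0.10 to 0.33 after NAP and -0.26 to -0.01 in controls. These are descriptions with no test of their own.

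Differences among members went with transcript GC content. Over the 42 tested members, Spearman's rho between log2 fold change and GC content was -0.51, a description over genes that share the same 11 libraries, where it was -0.44 over 12472 genes. It was -0.80 over the 9 members of complex III, -0.64 over the 12 of complex IV and -0.13 over the 17 of complex V. The 14 members of lowest GC (37.0 to 48.5%) had a median log2 fold change of -0.19 and 10 negative values, and the 14 of highest GC (53.0 to 63.3%) had -0.68 with 14 negative. Per library, the rank correlation of gene level with GC content over genes was 0.12, -0.25, 0.00, -0.21, -0.32 and -0.54 in NAP libraries 1 to 6, against 0.15, 0.36, 0.17, 0.02 and 0.29 in controls 1 to 5. The part of GC content in the member differences was not tested. With the GC trend removed in each library, 38 members were still negative, with a median of -0.33, and with both GC and gene length trends removed 18 were, with a median of 0.06.

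**Figure D4:**
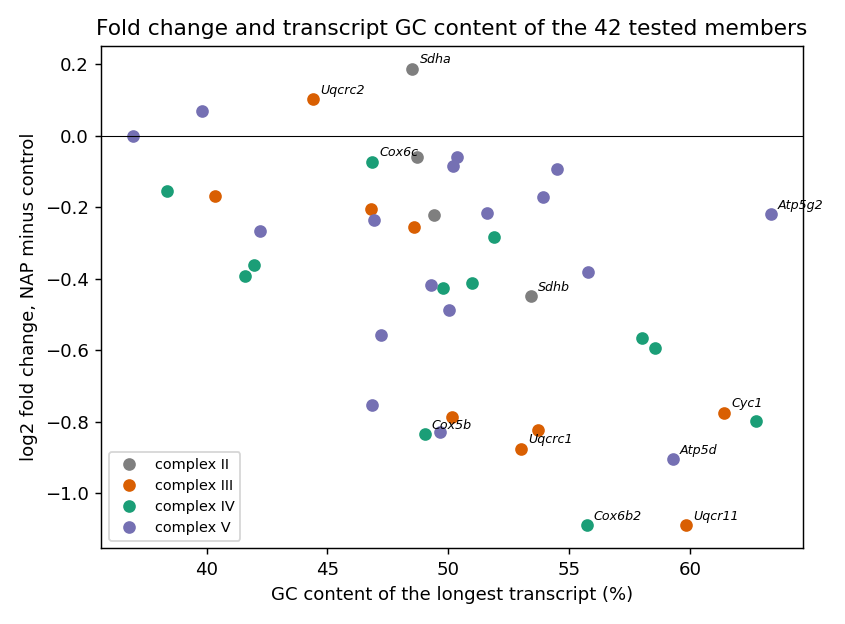
Log2 fold change, NAP minus control, of the 42 tested members against the GC content of their longest transcript in percent, coloured by complex. Members of complex III and IV with high GC, such as Uqcr11 and Cyc1, lie low, and Atp5g2, at the highest GC of all, lies near -0.22.

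Genes that build, feed or control the complexes were looked at as further lists. Of 45 assembly factors, 40 were tested; 0 were called by edgeR, where 2.12% of all genes were, 12, or 30%, stood at an unadjusted p under 0.05, against 23.6% of all genes, and 29, or 72.5%, were negative, against 55.3%, with a median of -0.24. The lowest adjusted p-values were those of Sdhaf1, which helps mature Sdhb, at 14.8 ± 3.29 CPM after NAP and 26.1 ± 5.13 CPM in controls (log2 fold change -0.81, SE 0.20, adjusted p = 0.0509), and of Cmc2, a complex IV factor, at 8.53 ± 3.08 CPM after NAP and 20.2 ± 7.85 CPM in controls (-1.24, SE 0.31, adjusted p = 0.0536). NAP libraries lay below every control for 2 of the 40, Sdhaf1 and Coa6, where they did for 2.57% of all genes. Of 4 electron carriers and associated subunits, 3 were tested and 0 called (2.12% of all genes were), with 2 positive and 1 negative. Their median was 0.08, and 1, or 33.3%, stood at an unadjusted p under 0.05, against 23.6% of all genes. This was Ndufa4, a subunit bound to complex IV, at 104 ± 27.7 CPM after NAP and 146 ± 42.3 CPM in controls (-0.50, adjusted p = 0.200). Etfdh averaged 84.2 ± 7.66 CPM after NAP and 72.6 ± 13.6 CPM in controls (0.21, adjusted p = 0.407), and the log2 fold change of Cycs was 0.08.

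Transcription regulators of respiratory genes numbered 15, with 8 positive, 7 negative, a median of 0.06, 0 called (2.12% of all genes were) and 4 at an unadjusted p under 0.05, or 26.7%, near the 23.6% of all genes. Polrmt, the mitochondrial RNA polymerase, averaged 18.5 ± 6.04 CPM after NAP and 35.3 ± 10.1 CPM in controls (-0.93, adjusted p = 0.0599). Gabpa, an ETS factor, averaged 56.8 ± 10.1 CPM after NAP and 38.7 ± 6.79 CPM in controls (0.55, adjusted p = 0.0855). The coactivator gene Ppargc1a averaged 38.8 ± 3.38 CPM after NAP and 29.1 ± 3.16 CPM in controls (0.41, adjusted p = 0.0925). Esrra, also at an unadjusted p under 0.05, averaged 157 ± 44.9 CPM after NAP and 248 ± 85.3 CPM in controls (-0.66, adjusted p = 0.146). The 5 tested mitochondrially encoded subunits of complexes III to V were all positive, with a median of 0.32, 0 called and 1 at an unadjusted p under 0.05, or 20%, where 23.6% of all genes were. COX1, the core of complex IV, averaged 41438 ± 15769 CPM after NAP and 21581 ± 11140 CPM in controls (0.94, adjusted p = 0.179). COX2, COX3 and ATP6 were far lower, at 201, 58.8 and 52.7 CPM after NAP and 128, 55.4 and 46.2 CPM in controls. The cause of this gap was not tested, and the handling of multiply matching reads is not stated.

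The order of the complexes changed less with the settings than their direction did. Complex III had the lowest and complex II the highest median in all 28 alternative fits, while the complex III median was negative in 26 of them, and only the fits without controls 2 and 5 and with GC and length trends removed made it positive. Members were called in 2 of the 28. DESeq2 called Uqcrc1. Without controls 1 and 4, edgeR called 17 members, all lower, where 8.28% of all genes were called, 5.46% lower. Those controls had the lowest member scores, so leaving them out pushes members lower after NAP, and the 17 calls are no support. The fits share libraries, so their number is no measure of support.

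**Figure D5:**
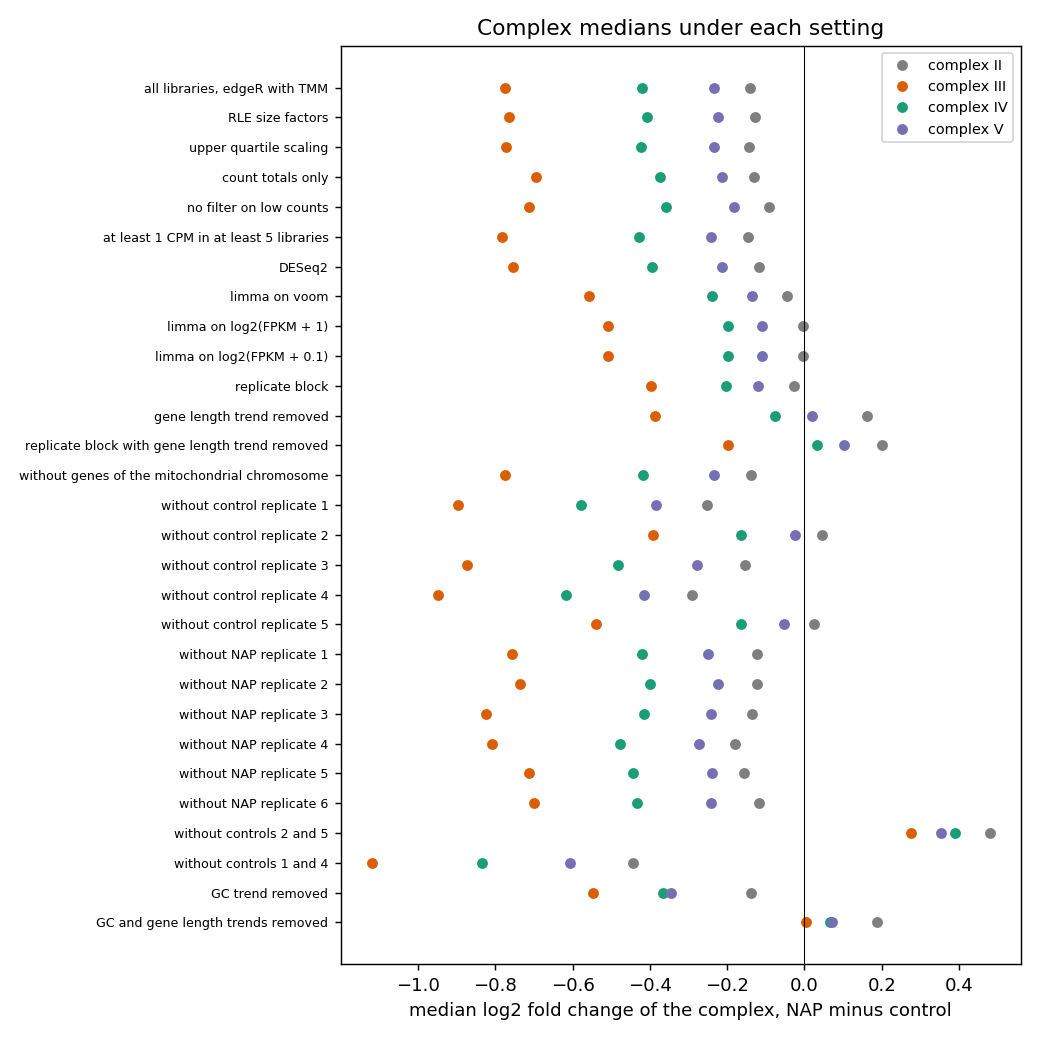
Median log2 fold change, NAP minus control, of each complex (coloured points) in the fit over all libraries and in 28 alternatives. The complex III point is leftmost and the complex II point rightmost in each row. All 4 points lie right of 0 without controls 2 and 5. They also do with GC and gene length trends removed, where complex III is at 0.0033.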

How the data were processed

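The authors deposited whole-number counts per gene and FPKM values for the same genes in 11 libraries. Per the submitters' processing notes, the tools were Trimmomatic 0.39, HISAT2 2.2.1 and featureCounts of Subread 2.0.8, with build GRCm39. The strand setting, the annotation and the handling of multiply matching reads are not stated there or in the labels. Each FPKM value deposited was the count times 1 constant per library over gene length. Genes without a name took 0.154 to 0.264% of counts and were kept in the tests.

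Counts were filtered with filterByExpr, scaled with TMM and tested, NAP minus control, with edgeR 4.0.16 (robust quasi-likelihood, R 4.3.3, Benjamini-Hochberg, threshold 0.05, no covariate). The filter kept 42 of 48 members and 14840 genes. The standard error is the log2 fold change over the square root of the F statistic. CPM values are TMM-scaled, and log2 CPM uses a prior count of 2. Alternatives used DESeq2 1.42.0, limma 3.58.1, other scalings and filters, libraries left out and trends removed (lowess, span 0.3). The fit was checked on counts simulated gene by gene, with no library shift shared by genes. Such a check does not cover libraries in which many genes move together, as in these controls. Intervals and floors (3 counts) cover counting error only, and floors are per raw count total, without TMM scaling.

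Members, lists, motifs and left-out libraries were chosen with earlier results of these data known. Named genes were, per complex, the 3 lowest p-values, the highest FPKM, the extreme fold changes at a mean log2 CPM of at least 1 and fixed isoforms. Of each further list the 2 lowest p-values were named. Other members and some other genes of these lists are given for completeness. GC content came from the longest GENCODE M21 transcript (GRCm38), matched by gene identifier. Protein sequences were not analysed here.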

Additional observations from a re-analysis of the deposited data

How the results depend on the processing

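Of the tested members, all but Cox6b2 were well above the floor that 3 counts set. The count of called genes, 315 by edgeR, was 0 to 814 with 1 library left out: 0 without control 1, 2 or 5 or NAP 2, 4 or 5, 112 without NAP 6, 158 without control 3, 790 without NAP 3 and 814 without NAP 1. It was 41 with count totals only, 89 with no filter on low counts, 1656 with DESeq2, 824 without controls 2 and 5, 1315 without controls 1 and 4, 31 with the GC trend removed (this and the joint GC and length removal were chosen after seeing the data), 0 with GC and gene length trends removed, 0 at an adjusted p of 0.01 and 1480 at 0.1. With the replicate number as a block, alone or with the length trend removed, it was 0. The labels do not say whether the numbers pair the libraries. Deviations of same-numbered libraries correlated at 0.42, 0.34, -0.074, -0.30 and 0.30 for controls 1 to 5. Controls 1 and 2 correlated best with their own number and controls 3, 4 and 5 did not. Such correlations cannot decide whether libraries shared an animal or culture. Members called numbered 1 with DESeq2, 17 without controls 1 and 4 and 0 otherwise. The cause of these moves was not tested.

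Without controls 2 and 5 the complex medians were 0.48 (II), 0.27 (III), 0.39 (IV) and 0.35 (V). With GC and length trends removed they were 0.19 (II), 0.0033 (III), 0.067 (IV) and 0.071 (V). Without controls 2 and 5, log2 fold changes turned positive for Atp5b 0.34, Atp5d 0.0041, Atp5e 0.071, Atp5g2 0.26, Cox4i1 0.26, Cox6a1 0.35, Cox6b1 0.45, Cox6c 0.69, Cox7a2 0.88, Cox7a2l 0.37, Cox7b 0.40, Cox8a 0.38, Sdhb 0.66, Sdhd 0.21, Uqcr10 0.0076, Uqcrfs1 0.44 and Uqcrh 0.54. Without controls 1 and 4, Atp5l was -0.24 and Uqcrc2 -0.18. With the gene length trend removed the values were 0.019 for Atp5b, 0.17 for Atp5g2, 0.056 for Cox6b1, 0.38 for Cox6c, 0.20 for Cox7a2, 0.030 for Cox7b, 0.065 for Sdhd, 0.079 for Uqcrfs1 and 0.25 for Uqcrh. With the replicate block and the length trend removed they were 0.062 for Atp5b, 0.25 for Atp5g2, 0.20 for Cox6b1, 0.46 for Cox6c, 0.40 for Cox7a2, 0.094 for Cox7b, 0.10 for Cox8a, 0.11 for Sdhb, 0.11 for Sdhd, 0.13 for Uqcrfs1 and 0.29 for Uqcrh. With the GC trend removed they were 0.45 for Atp5g2, -0.29 for Atp5l and -0.11 for Uqcrc2. With GC and length trends removed they were 0.073 for Atp5b, 0.81 for Atp5g2, 0.22 for Cox4i1, 0.41 for Cox6a1, 0.17 for Cox6b1, 0.31 for Cox6c, 0.32 for Cox7a2, 0.32 for Cox8a, 0.039 for Cyc1, 0.15 for Sdhb, 0.069 for Sdhd, 0.043 for Uqcrfs1 and 0.16 for Uqcrh. Cox6c and Cox7a2 also turned positive with limma on voom (0.10 and 0.081), log2(FPKM + 1) (0.14 and 0.12), log2(FPKM + 0.1) (0.14 and 0.12) and the replicate block (0.14 and 0.11). With 1 library left out, Cox6c ran from -0.26 to 0.19, Cox7a2 from -0.51 to 0.072 and Uqcrh from -0.39 to 0.058, turning positive without control 2 or 5, and Atp5l from -0.068 to 0.26 and Uqcrc2 from -0.037 to 0.28, turning negative without control 1 or 4.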

Other observations

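Ratios between nuclear subunits of 1 complex were compared for 5 pairs, and the groups were apart in 1 of them. These ratios were chosen after values had been seen, carry no test and have no background over other gene pairs. The log2 ratio of Uqcrc2 to Uqcrc1 CPM, the core proteins of complex III, was -0.23, 0.37, -0.61, 0.10, 0.62 and 0.01 in NAP libraries 1 to 6, against -0.82, -1.12, -0.66, -0.69 and -0.99 in controls 1 to 5, so that the groups did not overlap. The log2 ratio of Sdha to Sdhb averaged 1.20 ± 0.20 after NAP and 0.89 ± 0.83 in controls (SD, n = 6 and 5), with both controls 2 and 5 at 0.02, and the groups overlapped. That of Atp5a1 to Atp5b averaged -0.24 ± 0.066 after NAP and -0.31 ± 0.21 in controls, and that of Atp5a1 to Atp5d 2.13 ± 0.15 after NAP and 1.52 ± 0.57 in controls. That of Cox6c to Cox5b averaged 1.49 ± 0.73 after NAP and 0.56 ± 0.23 in controls, and the groups overlapped in all 3.

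Mitochondrially encoded over nuclear transcripts of complex IV, as the log2 ratio of summed FPKM, stood at 1.63, 2.95, 1.78, 2.25, 3.01 and 2.17 in NAP libraries 1 to 6, against 1.07, 0.73, 1.10, 1.44 and 0.89 in controls 1 to 5, with no overlap. Without COX1 the ratio averaged -4.00 ± 0.74 after NAP and -4.80 ± 0.19 in controls, and the groups overlapped. For complex III it averaged 0.44 ± 0.60 after NAP and -0.09 ± 0.90 in controls, and for complex V -6.24 ± 0.46 after NAP and -6.61 ± 0.46 in controls, with overlap in both. COX2, COX3 and ATP6 had far fewer counts than COX1 for a reason not tested, so the complex IV and V ratios are uncertain.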
